A study of Mus musculus with 9 samples.

Results

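The genes described here encode the proteins of the cytosolic ribosome. They were taken from the RefSeq gene table of the mouse build GRCm38 by symbol (Rpl or Rps followed by a number, with the usual suffixes, plus Rplp0, Rplp1, Rplp2 and Rpsa), with the S6 kinases left out. The rule gave 84 of 21887 protein-coding genes, 52 of the large 60S subunit and 32 of the small 40S subunit. A gene was called listed in a library if a deposited region of enrichment overlapped the 1 kb on either side of either annotated end of the gene. The choice of members used no measured value.

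The libraries came from chromatin immunoprecipitation and sequencing (ChIP-seq) of 3T3-L1, a line of mouse preadipocytes that form adipocytes in culture when induced. All cells were transfected with siRNA 2 days before adipocyte differentiation was induced and were fixed 7 days after induction. The 3 siRNA groups were a negative control (siControl), siME1 against malic enzyme 1, which makes NADPH in the cytosol, and siME2 against the mitochondrial malic enzyme 2. Each group was precipitated with antibodies to H3 in acetylated form (AcH3), to H2B in acetylated form (AcH2B) and to HDAC3, a histone deacetylase, which gave 9 libraries, 1 for each antibody and siRNA. With 1 library each, the spread between cultures was not measured, no test between groups was possible, and each difference is between 2 libraries. Both knockdowns were set against the same siControl library, so their counts of genes lost and gained share it. In a bulk culture, a mark carried by fewer cells and a weaker mark in each cell cannot be told apart.

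The ribosome reads messenger RNA on its small subunit and joins amino acids on its large subunit, and its proteins are made in near equal amounts from genes scattered over the chromosomes. Their promoters are among the most active in growing cells. Transcription typically starts at a C within a short run of pyrimidines, the terminal oligopyrimidine (TOP) tract, through which the translation of these messages follows mTOR signalling. Acetylated histones mark nucleosomes beside active start sites, and HDAC3, the deacetylase of the NCoR and SMRT corepressor complexes, removes such marks.

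The stretch around the start site is shown for 4 members, because most of the regions described below lay beside it and because these 4 cover the range of behaviour. Each sequence runs 5′ to 3′ on the strand of the gene, from RefSeq (GRCm38.p6), and the capitals mark the longest run of C or T that touches the 10 bases on either side of the annotated start. Rpl27a (L27a of the large subunit, chr7:109519115-109519214, plus strand) carried AcH3 in all 3 groups. Rps6 (S6, the substrate of the S6 kinases, chr4:86857348-86857447, minus strand) lost its AcH3 region in siME2. Rpl4 (L4, which lines the exit tunnel, chr9:64173307-64173406, plus strand) had AcH2B regions in both knockdowns and none in siControl. Rpl10l (a paralog of Rpl10 used in the testis, chr12:66284382-66284481, minus strand) had no listed region in any acetylation library.
Rpl27a: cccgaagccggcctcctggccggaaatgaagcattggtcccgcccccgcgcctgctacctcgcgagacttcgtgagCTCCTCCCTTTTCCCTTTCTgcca
Rps6: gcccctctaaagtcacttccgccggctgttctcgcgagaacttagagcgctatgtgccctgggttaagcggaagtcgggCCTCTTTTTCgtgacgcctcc
Rpl4: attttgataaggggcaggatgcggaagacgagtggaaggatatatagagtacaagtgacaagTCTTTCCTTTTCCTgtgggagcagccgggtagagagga
Rpl10l: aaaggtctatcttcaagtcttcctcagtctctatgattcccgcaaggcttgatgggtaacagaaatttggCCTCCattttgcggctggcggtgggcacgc
The run was 20 bases long in Rpl27a, 10 in Rps6, 14 in Rpl4 and 5 in Rpl10l. In Rpl27a and Rps6 it spanned the start site itself, whereas in Rpl4 and Rpl10l it ended before it.

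The AcH3 tables held 21995, 34799 and 28415 regions in siControl, siME1 and siME2, those for AcH2B held 20046, 54649 and 32465, and those for HDAC3 held 4614, 5202 and 1597. Read from the background of each table, the depth of the knockdown libraries relative to the siControl library of the same antibody was 1.307 and 1.176 for AcH3, 0.998 and 0.972 for AcH2B, and 1.204 and 1.29 for HDAC3. Of 12 preadipocyte and fibroblast markers, 11, 10 and 10 were listed for AcH3 in siControl, siME1 and siME2 (Dlk1 in siControl only). Of 12 adipocyte markers, 3 were listed in each AcH3 library (Cebpa and Lpl in all 3, Pparg in siControl and siME1, Fabp4 in siME2), and Adipoq, Plin1 and Cidec were listed in none. Of 8 leukocyte markers, 2 were listed for AcH3 in siControl (Spi1 and Cd68). None of 6 endothelial and none of 6 muscle markers was listed for acetylation.

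In siControl, AcH3 was listed at the ends of 80 of the 84 members, 95.2%, against 47.0% of all protein-coding genes. All 32 genes of the small subunit and 48 of 52 of the large subunit were listed. The fold over local background at the summit of a region, which is the authors' own value for that region, had a median of 11.94 over the 80 members. It ran from 2.98 at an end of Rpl18, in a region nearest the start of its neighbour Sphk2, to 19.57 at Rpl3. Over all genes listed in the same library the median was 9.64, and 66 of the 80 members lay above it. Regions at members were also long, with a median of 1586 bp against 1320 bp over all listed genes, and 65 of them held more than 1 summit. The median member had 40 fragments at its summit.

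Members listed for AcH3 in all 3 groups were ranked by −log10 p in siControl, not by fold. The 5 with the strongest regions were Rpl3, Rps19, Rpl32, Rpl8 and Rpl27a. At Rpl3, which encodes L3 near the peptidyl transferase centre, the siControl fold was 19.57 (78 fragments at the summit, 95% Poisson interval 61.7 to 97.3, chr15:80080799-80084106), with 12.54 after siME1 and 7.6 after siME2. At Rps19, a small subunit gene mutated in Diamond-Blackfan anaemia, the folds were 17.37, 4.59 and 4.19, with 63 (48.4 to 80.6), 34 (23.5 to 47.5) and 13 (6.9 to 22.2) fragments. Both genes thus had their highest value in siControl and their lowest in siME2. At Rpl32 the folds were 17.65, 3.23 and 5.01, so siME1 held the lowest. At Rpl8, which encodes a large subunit protein bound deep in the ribosomal RNA core, they were 14.86, 4.9 and 3.7. At Rpl27a they were 17.92, 7.75 and 5.15, and the strongest region was 2230 bp long in siControl, 874 bp in siME1 and 540 bp in siME2. The siME1 and siME2 regions there did not overlap each other. The intervals cover counting error only, and each fold is relative to the background of its own library.

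**Figure D1:**
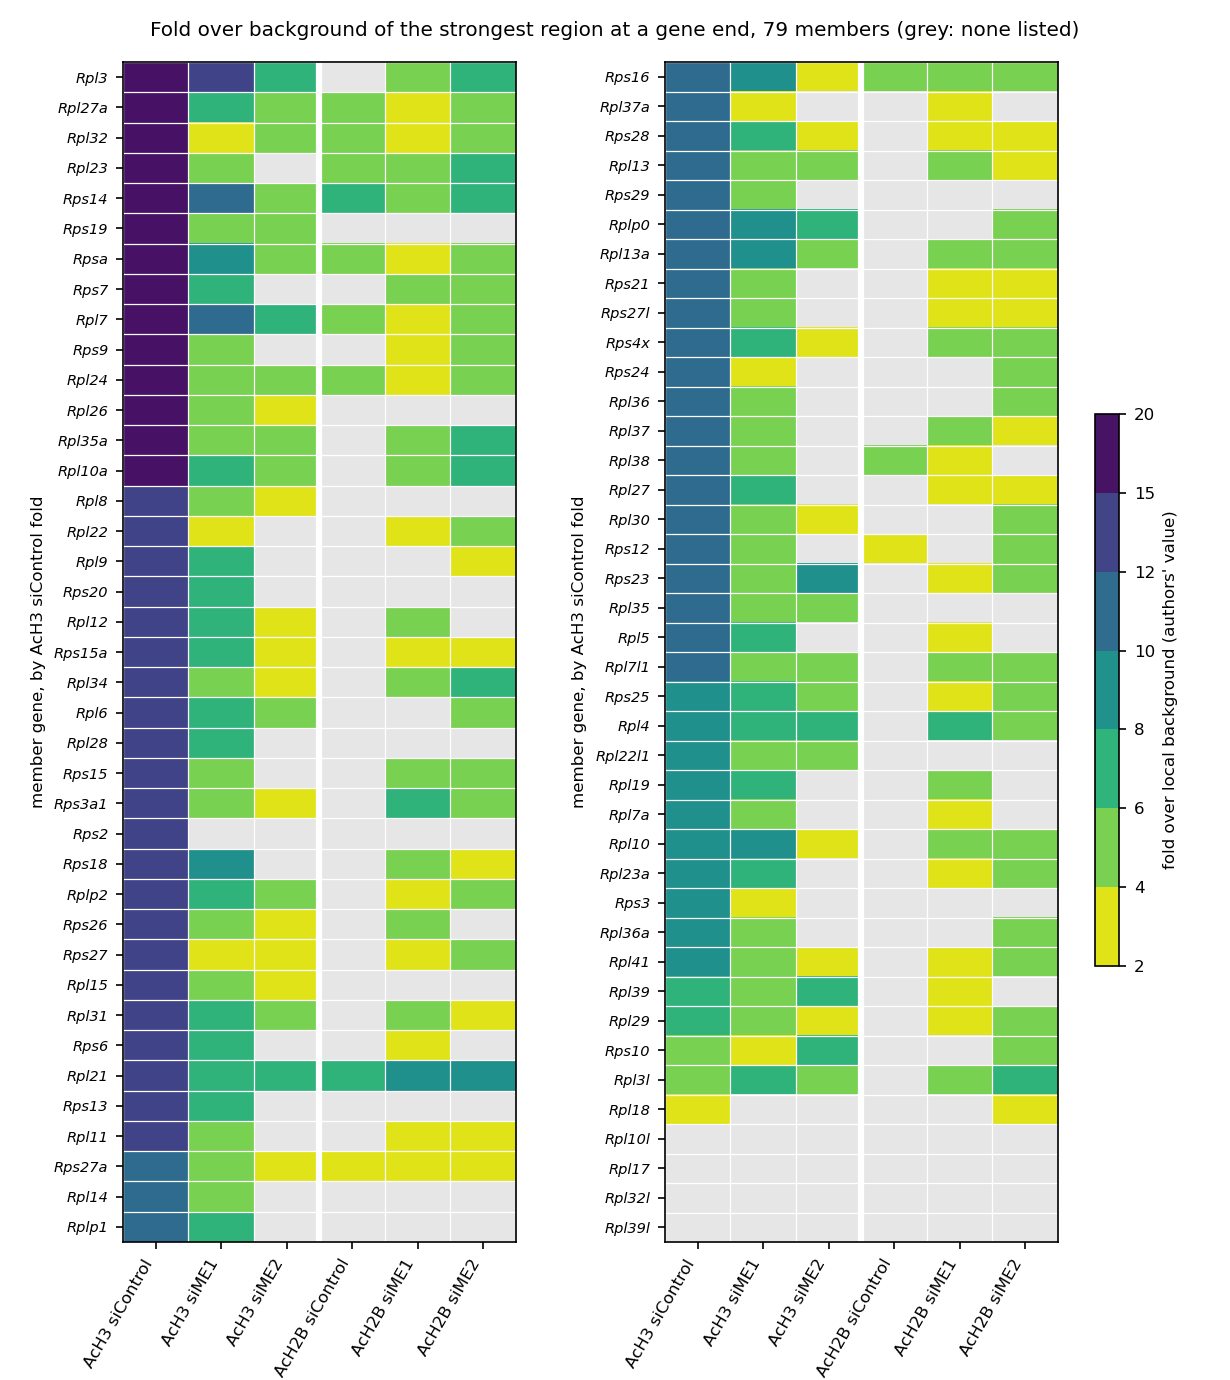
Fold over local background of the strongest listed region at a gene end for 79 of the 84 members (lines, ordered by AcH3 fold in siControl) in the 3 AcH3 and 3 AcH2B libraries (columns); grey cells had no listed region. The AcH3 siControl column is filled for 75 of those drawn and darkest, the AcH3 siME2 column for 43, and the AcH2B columns for 12, 51 and 52.

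After siME1, AcH3 was listed at 78 of the 84 members, 92.9%, against 41.7% of all genes. The loss touched 2 of the 80 members listed in siControl, 2.5%, against 14.0% of all genes listed there, and none of the other 4 members gained a region, against 2.44% of all genes. Both losses were at genes whose annotated start lies well inside the annotated span. Rps2, which encodes a protein at the mRNA entry of the small subunit, had a fold of 13.54 in siControl and no region at its ends in siME1 or siME2. Its start site lies 1942 bp inside the span, and there AcH3 was listed in siME1 with a fold of 5.51. At Rpl18 the start lies 2604 bp inside, and AcH3 was listed at it in all 3 groups, with folds of 12.59, 9.84 and 4.51. Counted at annotated start sites, which are given for 64 members, AcH3 was listed at 60 in siControl and at 60 in siME1, against 49.3% and 43.4% of the 17492 genes with a start site. By that rule 0 of 60 members were lost in siME1, against 13.3% of genes, and 0 of 4 gained, against 1.42%.

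The member regions that stayed on the list in siME1 were narrower and not above the general level. Their median fold was 5.9 against 5.91 over all genes listed, with 39 of 78 members above it, and their median width was 736 bp against 759 bp. With regions asked to cover the annotated gene end itself, 26 of 50 members (52.0%) were lost in siME1, against 48.1% of genes. With a −log10 q of at least 5, 8 of 79 (10.1%) were lost, against 27.6%.

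After siME2, AcH3 was listed at 47 of the 84 members, 56.0%, against 23.9% of all genes. The regions of 33 of 80 members were lost, 41.2%, against 51.5% of all genes listed in siControl, and none of the other 4 members gained one, against 2.02%. The 47 members that stayed listed had a median fold of 4.2 against 4.75 over all genes listed, with 18 of 47 above it, and a median of 15 fragments at the summit, where the weakest summit listed in this library held 9. At start sites the counts were 37 of 64 members listed, against 24.4% of genes, with 23 of 60 lost, against 51.5%, and 0 of 4 gained, against 1.03%. The order of members and background was not the same under every limit. With a −log10 q of at least 5, 60 of 79 members (75.9%) were lost, against 71.9% of genes, and with equal numbers of AcH3 regions in each group 44 of 80 (55.0%) were lost, against 57.1%.

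The 33 members without AcH3 at their ends in siME2 included Rps2, Rps3, Rps6, Rps7, Rps9, Rps12, Rps13, Rps15, Rps18, Rps20, Rps21, Rps24, Rps27l, Rps29, Rpl5, Rpl7a, Rpl9, Rpl11, Rpl14, Rpl18, Rpl19, Rpl22, Rpl23, Rpl23a, Rpl27, Rpl28, Rpl36, Rpl36a, Rpl37, Rpl37a, Rpl38 and Rplp1. Some had strong regions in siControl. At Rps7 the folds were 17.08 in siControl and 6.78 in siME1, and at Rpl23, whose protein faces the small subunit, they were 17.37 and 5.91. At Rpl18, Rpl19, Rpl38 and Rps27l the loss belonged to the annotated ends, since AcH3 was listed at their start sites in siME2 with folds of 4.51, 6.03, 3.77 and 4.47. Taking the whole gene and 1 kb on either side, 52 members (61.9%) were listed in siME2, against 31.8% of all genes. On that count 29 of 81 members (35.8%) were lost, against 43.5% of genes.

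The 47 members that stayed listed for AcH3 in all 3 groups included Rps23, whose fold in siME2 was the highest of any member at 8.51, with 10.58 in siControl and 5.14 in siME1. Rps23 encodes S23 of the decoding centre. At Rpl4 the folds were 9.73, 7.75 and 6.81, so they lay closer together than those of Rps19 or Rpl32. At Rps10 the folds were 5.97, 3.68 and 6.52, with 37, 23 and 21 fragments at the summit. The local background there was 3.05, 2.37 and 1.13 times the lowest of each library, so the fold and the fragments gave different orders. Among genes in general the share lost fell as the siControl fold rose. Among members it did not fall step by step, in ranges of few members. Of members with a siControl fold of 5 to 10, 5 of 15 (33.3%) were lost in siME2, against 64.7% of genes of that range. Of those from 10 to 15, 23 of 48 (47.9%) were lost, against 38.7%, and of those at 15 or more, 4 of 16 (25%), against 19.7%.

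**Figure D2:**
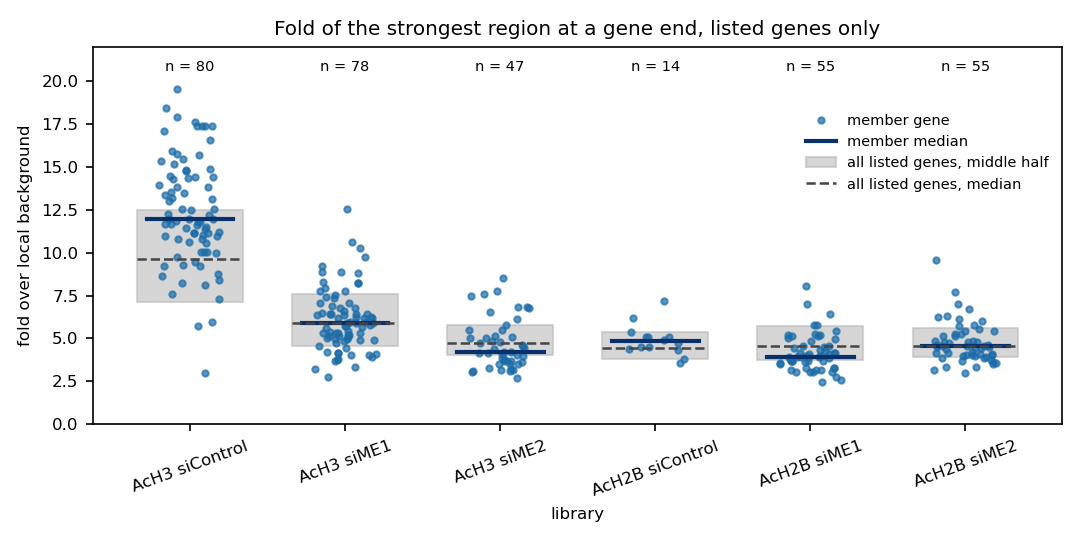
Fold over local background of the strongest region at a gene end, for members listed in each library (points, n above each column) with the member median (solid line), and the median (dashed) and middle range of all listed genes (grey box, first to last quartile). The AcH3 siControl median of 11.94 lies above the 9.64 of all genes, and the AcH3 siME2 median of 4.2 lies below 4.75.

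AcH2B behaved otherwise. In siControl it was listed at 14 of the 84 members, 16.7%, against 10.1% of all genes, and all 14 also carried AcH3. Among genes listed for AcH3 in siControl the order was the reverse, with AcH2B at 14 of 80 members, 17.5%, against 19.5%. The 14 members included Rpl7, Rpl21, Rpl23, Rpl24, Rpl27a, Rpl32, Rpl38, Rps12, Rps14, Rps16, Rps27a and Rpsa. The median fold was 4.83, against 4.43 over all genes listed. The strongest at gene ends was Rpl21, a large subunit gene, whose AcH2B fold was 7.17 in siControl against 8.08 after siME1 and 9.6 after siME2, with 28, 36 and 34 fragments at the summit (intervals 18.6 to 40.5, 25.2 to 49.8 and 23.5 to 47.5). These 3 intervals overlapped. At Rps14, which is needed for small subunit maturation, the AcH2B folds were 6.21, 4.84 and 6.16, and at Rps16, whose protein reaches toward the transfer RNA, they were 5.37, 5.41 and 5.26. At Rpl23 they were 5.09, 5.76 and 7.73.

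After siME1, AcH2B was listed at 55 of 84 members, 65.5%, against 30.6% of all genes. Of the 70 members without it in siControl, 42 gained a region, 60%, against 23.4% of all such genes, and 1 of 14 (Rps12) lost it, against 5.19%. After siME2, AcH2B was again listed at 55 members, against 25.8% of all genes. Here 44 of 70 gained a region, 62.9%, against 19.2%, and 3 of 14 lost it, Rpl38 among them, against 15.6%. Since nearly all members carried AcH3 in siControl, the gains were also set against genes that had AcH3 and no AcH2B there. On that footing 42 of 66 members (63.6%) gained AcH2B in siME1, against 50.3% of genes, and 44 of 66 (66.7%) gained it in siME2, against 43.3%. At start sites AcH2B was listed at 8, 43 and 42 of 64 members, against 9.46%, 30.4% and 25.8% of genes. There 36 of 56 gained it in siME1, against 23.5%, and 35 of 56 in siME2, against 19.6%, while 1 of 8 lost it in each, against 3.51% and 14.3%.

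The siME1 table held more regions than any other, and fewer members were counted in it when fewer regions were admitted. Why it was longer was not tested. The median fold at members in siME1 was 3.94, against 4.55 over all genes listed, with 16 of 55 above it, and the median width was 440 bp against 577 bp. In siME2 the medians were 4.58 and 4.58. With the AcH2B tables limited to equal numbers of their strongest regions, 18 members were listed in siME1 and 42 in siME2, with gains at 14 of 70 (20%, against 9.22% of genes) and 32 of 70 (45.7%, against 13.2%), and with losses at 10 of 14 in siME1 (71.4%, against 18.7%). With a −log10 q of at least 5, 15 of 76 members (19.7%, against 13.7%) gained AcH2B in siME1 and 20 of 76 (26.3%, against 10.3%) in siME2.

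Ranked by the lower −log10 p of the 2 knockdowns, the strongest common gains were at Rpl10a, Rpl35a, Rpl3, Rpl4, Rpl3l, Rpl34, Rps3a1 and Rpl13a. None of these had an AcH2B region in siControl. At Rpl10a, whose protein forms the L1 stalk, the fold was 5.19 in siME1 and 6.72 in siME2, with 33 (22.7 to 46.3) and 23 (14.6 to 34.5) fragments at the summit. At Rpl35a, another Diamond-Blackfan anaemia gene, the folds were 5.13 and 6.29 and the 2 regions covered nearly the same stretch, chr16:33056117-33056911 and chr16:33056097-33056889. At Rpl4 the folds were 7.02 and 5.77 and the regions, chr9:64172821-64173236 and chr9:64172813-64173395, lay upstream of the start site shown above, the latter reaching it. All 3 therefore had regions in both knockdowns where the siControl table had none. At Rpl3 the AcH2B folds were 5.77 and 7.0, at Rpl34 they were 5.21 and 6.28, and at Rpl13a they were 4.5 and 4.03. At Rps3a1 they were 6.4 and 4.84. At Rpl10a, Rpl3, Rpl13a and Rps3a1, which is 4 of these 8 genes, the strongest regions of the 2 knockdowns did not overlap.

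Across the 84 members, AcH2B was listed in siME1 and siME2 but not in siControl at 34, in siME1 only at 8, in siME2 only at 10 and in all 3 groups at 10. The members listed in siME1 only were Rpl5, Rpl7a, Rpl12, Rpl19, Rpl37a, Rpl39, Rps6 and Rps26, and those in siME2 only included Rpl6, Rpl9, Rpl18, Rpl30, Rpl36, Rpl36a, Rplp0, Rps10 and Rps24. These are counts at annotated ends. At its start site inside the gene, Rpl19 had AcH2B in all 3 groups, with folds of 8.18, 6.35 and 6.28, and Rpl18 had it in siME1 and siME2, with folds of 3.3 and 4.3. AcH2B was listed in no group at 18 members, Rps2, Rps3, Rps13, Rps19, Rps20, Rps29, Rpl8, Rpl10l, Rpl14, Rpl15, Rpl17, Rpl22l1, Rpl26, Rpl28, Rpl32l, Rpl35, Rpl39l and Rplp1. Rps19 and Rpl8, by −log10 p among the strongest for AcH3 in siControl, were thus without a listed AcH2B region throughout.

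The AcH3 and AcH2B tables overlapped in a way that changed with the group, at members and over all genes. In siControl and siME1 every member with AcH2B also had AcH3, where only 4 and 6 members were without AcH3. In siME2, 37 of the 55 members with AcH2B had AcH3. Over all genes, AcH3 was listed at 2010 of 2214 genes with AcH2B in siControl, 6093 of 6699 in siME1 and 3733 of 5641 in siME2. In siME2, AcH2B was listed at 37 of the 47 members that kept AcH3, 78.7%, against 72% of such genes, and at 18 of the 33 that had lost it, 54.5%, against 32.7%. With either acetylation counted, 80, 78 and 65 of the 84 members were listed in siControl, siME1 and siME2, against 48.0%, 44.5% and 32.6% of all genes. The 15 members with AcH3 in siControl and neither mark in siME2 included Rps3, Rps13, Rps20, Rps29, Rpl14, Rpl28 and Rplp1, which had no AcH2B region in any group.

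HDAC3 was rarely listed at members. The siControl, siME1 and siME2 libraries listed 5, 4 and 1 of the 84, against 4.53%, 2.99% and 1.91% of all genes. The siControl regions were at Rpl8, Rps28, Rpl13, Rpl27 and Rpl37, with folds of 3.87, 3.4, 3.09, 2.56 and 2.37 and 5 to 9 fragments at the summit. Of these, 4 of 5 were lost in siME1, against 80.4% of genes listed in siControl, and 5 of 5 in siME2, against 84.7%. Gains were seen at 3 of 79 members in siME1, against 2.21%, and at 1 of 79 in siME2, against 1.28%. The gains in siME1 were at Rpl36 (fold 4.21), Rpl19 (2.53) and Rpl10a (2.39), and the gain in siME2 was at Rpl35 (2.72). Rpl13 was listed in siControl and siME1, with folds of 3.09 and 3.23, in strongest regions that did not overlap. The member shares were thus close to the background, and the strongest summits held 9 fragments (interval 4.1 to 17.1), so a change in HDAC3 at members was not detectable at this depth.

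The subunits differed little in their counts. AcH3 was listed at 48, 47 and 29 of the 52 large subunit genes and at 32, 31 and 18 of the 32 small subunit genes in siControl, siME1 and siME2. For AcH2B the counts were 8, 33 and 32 and 6, 22 and 23. Within the small subunit, 10 genes encode proteins of the mRNA entry and head (among them Rps2, Rps3, Rps10, Rps12, Rps15, Rps18, Rps19, Rps20 and Rps29). AcH3 was listed at 10, 9 and 3 of them, with Rps10 and Rps19 among the 3 left in siME2, so 7 of 10 were lost there, against 33 of 80 members in all and 51.5% of all genes. Their AcH2B counts were 1, 3 and 5. Rps3, which encodes S3 at the mRNA entry, had an AcH3 fold of 8.41 in siControl and 2.76 after siME1.

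Of 18 members reported as mutated in Diamond-Blackfan anaemia, AcH3 was listed at 18, 17 and 11 and AcH2B at 0, 10 and 11. In percent these were 100, 94.4 and 61.1 for AcH3, against 95.2, 92.9 and 56.0 of all members and 47.0, 41.7 and 23.9 of all genes. For AcH2B they were 0, 55.6 and 61.1, against 16.7, 65.5 and 65.5 of all members and 10.1, 30.6 and 25.8 of all genes. AcH3 was lost in siME2 at Rps7, Rps24, Rps29, Rpl5, Rpl11, Rpl18 and Rpl27. Rpl5 and Rpl11 bind the 5S ribosomal RNA and, when free of the ribosome, block MDM2 and so raise p53. At Rpl5 the AcH3 fold was 10.04 in siControl and 6.28 after siME1, and at Rpl11 it was 12.2 and 5.74. Neither was listed for AcH3 in siME2. AcH2B was listed at Rpl5 in siME1 with a fold of 3.19, and at Rpl11 in siME1 and siME2 with folds of 3.9 and 3.34.

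The P stalk, which recruits the elongation factors, is built from the products of Rplp0, Rplp1 and Rplp2. At Rplp0 the AcH3 folds were 11.52, 9.74 and 6.76 in siControl, siME1 and siME2. At Rplp2 they were 13.39, 6.61 and 5.47. At Rplp1 they were 11.94 and 6.43, with no region in siME2. AcH2B was listed at Rplp0 in siME2 with a fold of 4.87 and at Rplp2 in siME1 and siME2 with folds of 2.45 and 4.82, and it was not listed at Rplp1. After siME2, Rplp0 and Rplp2 thus carried both marks and Rplp1 neither. At Rps6, the AcH3 fold was 12.54 in siControl and 6.78 after siME1, and AcH2B was listed after siME1 at 3.67. No region of either mark was listed at Rps6 in siME2.

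Of the members, 30 hold a small nucleolar RNA gene within their span, as is common for ribosomal protein genes, whose introns serve as hosts. AcH2B was listed in siControl at 9 of these 30 and at 5 of the other 54. In siME1 the shares were 70.0% and 63.0%, and in siME2 they were 63.3% and 66.7%, so the shares of the 2 sets were closer in the knockdowns. The 4 members on the X chromosome were listed for AcH3 at 4, 4 and 3 and included Rpl10, with folds of 9.23, 8.86 and 3.86, and Rps4x, with folds of 11.15, 6.21 and 3.54.

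Paralogs expressed in restricted tissues differed from the core genes. Rpl10l and Rpl39l, known from the testis, had no acetylation region at their ends in any group, whereas their parent genes did. At Rpl39 the AcH3 folds were 7.6, 5.33 and 6.12. Rpl22l1, which is broadly expressed beside Rpl22, had AcH3 folds of 9.47, 4.05 and 4.09 and no AcH2B region. At the start site of Rpl22 the AcH3 folds were 14.84 and 7.39 in siControl and siME1, and AcH2B was listed in siME1 and siME2 with folds of 3.3 and 4.45, in regions nearest the start of a neighbouring gene, 9430083M05Rik. Rps27l, a p53 target, had an AcH3 fold of 11.22 at its ends in siControl and 5.33 after siME1, and AcH2B folds of 3.14 and 3.7 after siME1 and siME2. Rpl7l1 had AcH3 at its ends in all 3 groups, with folds of 10.04, 5.94 and 4.55, and the strongest siControl region lay nearest the start of a neighbouring gene, 2310039H08Rik. At its own start site the folds were 8.96, 5.94 and 4.55.

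Rpl3l, the paralog of Rpl3 used in heart and skeletal muscle, was listed for AcH3 with folds of 5.7, 6.37 and 4.8 and for AcH2B with folds of 4.28 and 6.02 in siME1 and siME2. All of these regions lay at the far end of the gene, nearest the start of Msrb1, and none lay within 1 kb of a start site of Rpl3l. The muscle markers Myod1, Myog, Des, Ckm, Acta1 and Myh1 were not listed. The values at Rpl3l therefore belong to the shared stretch between it and Msrb1 and cannot be assigned to either gene.

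Besides Rpl10l and Rpl39l, the members without AcH3 at their ends in siControl were Rpl17 and Rpl32l. Rpl17, a core gene of the large subunit, had AcH3 regions inside its span but more than 1 kb from either end, with folds of 9.77, 7.47 and 5.34, and an AcH2B region there in siME1 with a fold of 3.45. Rpl17 thus stood just outside the 1 kb limit, and Rpl18, with a siControl fold of 2.98 for the region that reached its end, stood just inside. The summit of that Rpl18 region lay 254 bp from the start of Sphk2, and at the start site of Rpl18 the fold was 12.59. Rpl32l, a gene of 592 bp named for its likeness to Rpl32, had no acetylation region. Ribosomal protein genes have many processed copies, and reads from these can be shared with the parent gene. Of 318 annotated ribosomal protein pseudogenes, 0.629% were listed for AcH3 in siControl, 1.89% in siME1 and 1.57% in siME2, and for AcH2B 1.57%, 3.77% and 2.52%. Listed regions were thus seldom at the copies. How reads with several matches were placed is not given in the sources used here. These shares therefore cannot show whether the copies carried the marks.

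Of the 84 members, 32 lie within 1 kb of another protein-coding gene, which may share a region with them. AcH2B was listed at 75% of these in siME1 and in siME2, and at 59.6% of the other 52 in each. Among those 52, AcH3 was lost at 0 of 49 in siME1, and at 42.9% in siME2. Where a start site is annotated, the nearest of all annotated starts to the strongest AcH3 summit was the member's own in 54 of 61 siControl cases, in 52 of 59 after siME1 and in 33 of 34 after siME2.

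The summits lay to the side of the start site, whether or not the region reached over it. The strongest AcH3 region covered the start in 34 of 60 members in siControl, 56.7%, against 78.2% of all genes. For the 60 members with an AcH3 summit within 1 kb of a start in siControl, the strongest summit lay a median of 430 bp into the gene, against 237 bp over all genes. It was on the downstream side in 52 of 60, 86.7%, against 78.3%. In siME1 and siME2 the median offsets were 312 bp and 212 bp, against 224 bp and 161 bp. Summits stood on both sides of the start in 47 of 60 members of the siControl library, 78.3%, against 62.9% of all genes. After siME1 this was so in 35 of 60, 58.3%, against 47.9%, and after siME2 in 8 of 37, 21.6%, against 27.1%. For AcH2B the strongest summit was downstream in 21 of 43 members in siME1, 48.8%, against 51.1% of all genes, and in 14 of 41 in siME2, 34.1%, against 35.2%. In siME2 the median offset was −254 bp, against −293 bp over all genes. The AcH3 summits of members thus stood deeper in the gene than those of genes in general in all 3 groups, and the median moved toward the start in both knockdowns, among members and among all genes.

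**Figure D3:**
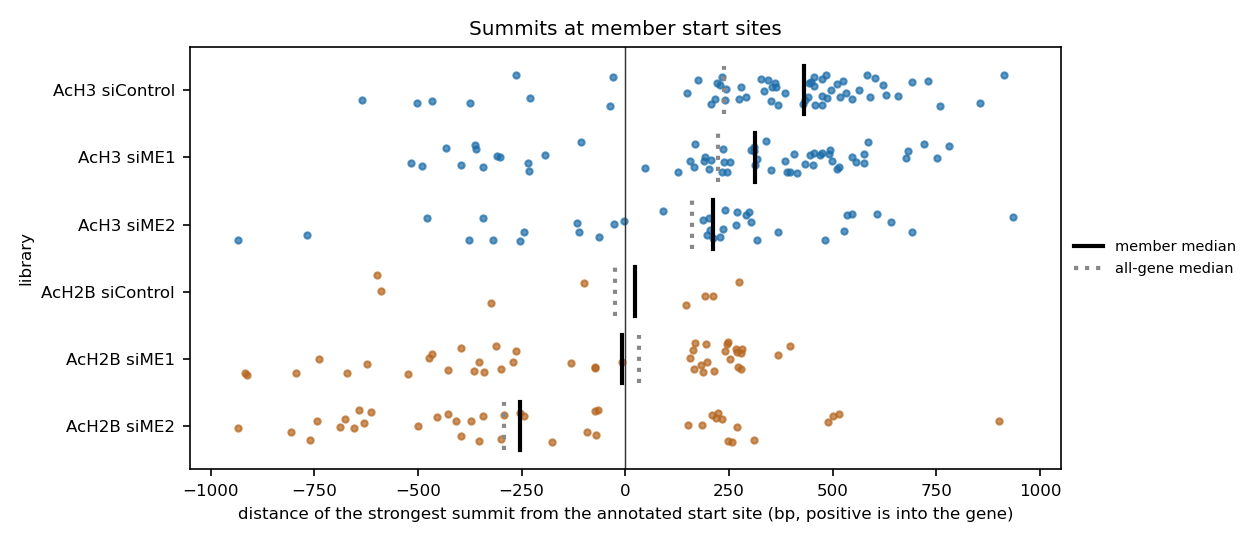
Distance of the strongest summit from the annotated start site, in bp with positive values into the gene, for members with a summit within 1 kb (points) in the 6 acetylation libraries, with the member median (solid) and the median of all genes (dotted). AcH3 summits lie mostly to the right of the start with a siControl median of 430 bp, and AcH2B summits in siME2 lie mostly to the left with a median of −254 bp.

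The promoters of the 64 members with an entry in RefSeq were searched from 250 bases before to 50 bases after the start, on both strands unless stated, and the share in all 17492 promoters is given beside each count. At least 8 consecutive C or T on the gene's strand, within the 10 bases on either side of the start (which the run of Rpl4 did not give), were found in 23 members, 35.9%, against 9.34%. CCGGAAG, the core bound by ETS factors such as GABPA, was found in 26, 40.6%, against 12.9% of all promoters and 22% of those with AcH3 in siControl. AAGATGGC, the YY1 motif, was found in 6, 9.38%, against 3.57%, and GGGCGG, the GC box, in 39, 60.9%, against 49.2% of all promoters but 71.3% of those with AcH3 in siControl. CACGTG, the E-box of MYC and its relatives, was found in 9.38%, against 8.91%, CCAAT in 29.7%, against 42.3%, and TATAAA on the gene's strand, 20 to 40 bases before the start, in 1 member, against 3.06%. CCGGAAG and AAGATGGC can share letters where they meet, the other motifs do not contain each other, and a match describes letters only. Members were also split by whether they kept AcH3 at a gene end in siME2. By that split Rpl18, Rpl19, Rpl38 and Rps27l stand among those that did not, though AcH3 was listed at their start sites. Rpl3l stands among those that did, without AcH3 at its start sites. The pyrimidine run was about as common in members that kept AcH3 as in those that did not, at 12 of 34 and 10 of 27. CCGGAAG was found in 15 of 34 and 10 of 27. GGGCGG was found in 24 of 34 and 14 of 27, and AAGATGGC in 5 of 34 and 1 of 27. The median GC content was 56.8% in members and 61.3% in all promoters with AcH3 in siControl. The members' promoters thus shared pyrimidine runs and ETS letters more often than promoters at large.

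The other genes of protein synthesis were counted by the same rule, and some stand on more than 1 of the lists. AcH3 was listed at 30, 29 and 20 of 30 initiation factor genes in siControl, siME1 and siME2, at 10, 10 and 8 of 10 elongation and termination factor genes, and at 20, 20 and 15 of 20 other genes whose messages carry a TOP tract. Of 44 ribosome biogenesis factor genes, which work in the nucleolus, 43, 36 and 13 were listed, and 69.8% were lost in siME2. Of 78 mitochondrial ribosomal protein genes, 73, 64 and 28 were listed, with 12.3% lost in siME1 and 61.6% in siME2. For the cytosolic members these losses were 2.5% and 41.2%, and for all protein-coding genes 14.0% and 51.5%. Over all genes AcH3 was listed at 47.0%, 41.7% and 23.9%. The AcH3 medians of the mitochondrial set were 9.22, 5.05 and 4.78, against 11.94, 5.9 and 4.2 for the cytosolic set. AcH2B was listed at 9, 38 and 45 of the 78 mitochondrial genes, at 7, 17 and 23 of the 44 biogenesis genes, at 10, 23 and 21 of the 30 initiation genes, at 2, 7 and 5 of the 10 elongation genes and at 6, 16 and 15 of the 20 other TOP genes. A higher count of AcH2B in both knockdowns was thus seen in each of these lists. The same held over all genes, where the shares were 10.1%, 30.6% and 25.8%. The lists were not tested against each other.

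**Figure D4:**
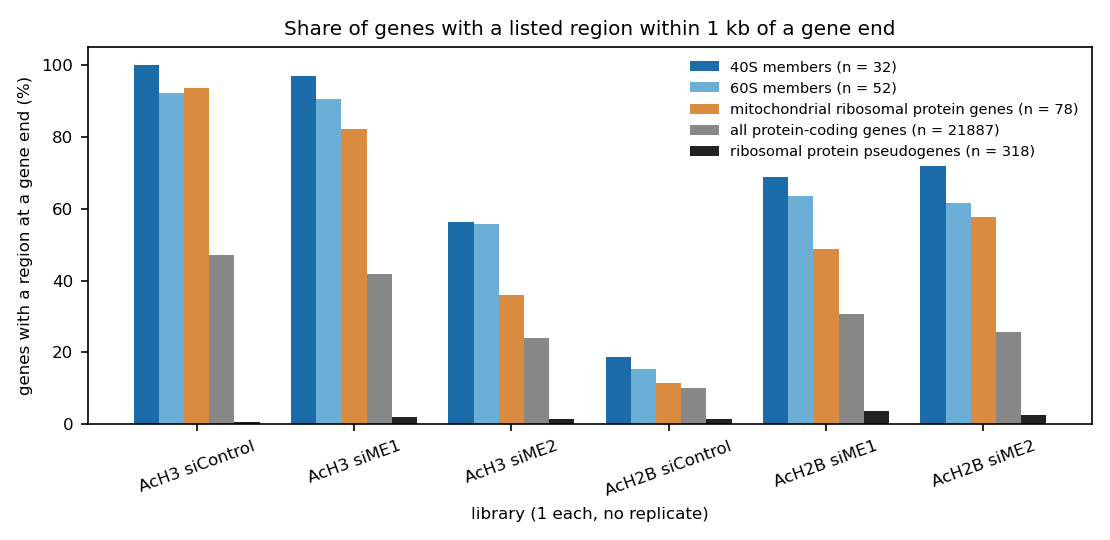
Share of genes (%) with a listed region within 1 kb of a gene end in the 6 acetylation libraries, for members of the small and large subunit, mitochondrial ribosomal protein genes, all protein-coding genes and ribosomal protein pseudogenes. The bars for AcH3 fall from 100% and 92.3% in siControl to 56.2% and 55.8% in siME2 for the small and large subunit, and the bars for AcH2B are lowest in siControl.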

How the data were processed

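The values start from 1 deposited peak table per library. The submitters' processing notes name BWA, SAMtools, MACS2, bedtools, deepTools and the build mm8. Versions and roles of these tools were not given in the sources used here. As deposited, each table has 10 columns without names, which were identified by their ranges. Pileup, as deposited, is a coverage signal at the summit. Significance was deposited as −log10 of a p-value and −log10 of a q-value. Fold, the authors' own ratio per summit, divides the pileup by the local background after adding 1 to each. The acetylation tables reached down to a −log10 q of 1.3, and the HDAC3 tables to a −log10 p of 2.3. For HDAC3 regions the −log10 q reached down to 0.0.

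Coordinates were read as GRCm38, not mm8: 53.0% of AcH3 siControl regions overlapped the 1 kb around a gene end, against 10.1% with the ends shifted by 50 kb. Groups follow the labels for siRNA and antibody, also for the HDAC3 libraries, whose titles say H3. The cells are labelled preadipocytes, though the protocol describes differentiation.

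Regions were joined to genes with Python 3.11.15, pandas 2.3.3 and NumPy 2.4.6, by an overlap of at least 1 bp, and scored by the summit of highest −log10 p. A gene was lost if listed in siControl and not in the knockdown, and gained in the reverse case. Fragments at a summit are the pileup divided by its step size, the value of 1 fragment, with exact 95% Poisson intervals (SciPy 1.17.1) that cover counting error only. The scripts were tested on simulated data. Start sites came from the RefSeq promoter table (GRCm38.p6), which held 64 of the 84 members. The genes named with their values in every library were those without AcH3 in siControl or with it there alone, the strongest for AcH3 in all groups, AcH2B in siControl or in both knockdowns, and HDAC3, the paralogs, the P stalk, Rpl5, Rpl11 and Rps6. Values of some single members are not reported here, and counts include them. Genes named beyond these were chosen after their values were seen. The members, lists and rules were chosen with earlier results of these data known. Alternatives were other windows, a stricter score, equal numbers of regions, summits in the window, fewer members and start sites. Counting over the whole gene was added after seeing the data.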

Additional observations from a re-analysis of the deposited data

How the results depend on the processing

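Values here are percentages of members unless given as of all genes. Lost is a share of the members listed in siControl by the same rule, and gained of those not listed there. Some of these shares rest on few members. No paired analysis was possible because each antibody and siRNA has 1 library. For the same reason no replicate could be left out. Leaving out the variant paralogs moved none of the 21 results. Asking regions to cover the gene end itself moved all 19 results that could be counted. By that rule no member had HDAC3 in siControl, so a share of HDAC3 lost could not be given. Members listed became 59.5, 33.3 and 20.2 for AcH3, 5.95, 19.0 and 14.3 for AcH2B, and 0.0 in each HDAC3 library (siControl, siME1, siME2). Of all genes, 33.6, 19.0 and 6.85 were listed for AcH3 and 2.7, 10.9 and 6.54 for AcH2B. For HDAC3 these were 0.946, 0.521 and 0.388. AcH3 was lost at 52.0 and gained at 11.8 in siME1 (48.1 and 2.35 of all genes). In siME2 it was lost at 72 and gained at 8.82 (81.8 and 1.11). AcH2B was lost at 0.0 in siME1 and 60 in siME2, of 5 members (12.4 and 36.3 of all genes). It was gained at 13.9 in siME1 and 12.7 in siME2 (8.74 and 4.95). HDAC3 was gained at 0.0 in both (0.387 and 0.254). A window of 5 kb gave AcH3 lost at 0.0 in siME1 (11.4 of all genes). It gave HDAC3 listed at 4.76 and gained at 5.13 in siME2 (3.2 and 1.9 of all genes).

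The stricter score moved 17. It asked for a −log10 q of at least 5 in the acetylation libraries and a −log10 p of at least 5 in the HDAC3 libraries. AcH3 was listed at 84.5 in siME1 and 22.6 in siME2, AcH2B at 9.52, 23.8 and 29.8, and HDAC3 at 1.19, 1.19 and 0.0. Of all genes these were 33.3 and 13.1 for AcH3, 5.0, 17.6 and 13.4 for AcH2B, and 1.07, 0.393 and 0.238 for HDAC3. AcH3 was lost at 10.1 and 75.9. AcH2B was lost at 37.5 in siME1, at 3 of 8 members (7.4 of all genes). In siME2 AcH2B was also lost at 3 of 8 members (26.8 of all genes), which is not counted as moved. It was gained at 19.7 and 26.3 (13.7 and 10.3 of all genes). HDAC3 was lost at 100.0 in both knockdowns, at 1 of 1 member in each (91.1 and 91.9 of all genes). The siME2 loss is counted as moved, though its share was 100.0 by the main rule too, at 5 of 5. HDAC3 was gained at 1.2 and 0.0 (0.3 and 0.152 of all genes).

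Equal numbers of regions moved 12. AcH3 was listed at 42.9 in siME2, AcH2B at 21.4 and 50.0 in siME1 and siME2, and HDAC3 at 1.19 in siControl and 2.38 in siME1. Of all genes these were 21.0 for AcH3, 16.5 and 19.5 for AcH2B, and 1.87 and 1.27 for HDAC3. AcH3 was lost at 10.0 and 55.0 (23.4 and 57.1 of all genes). AcH2B was lost at 71.4 in siME1 (18.7 of all genes) and gained at 20 and 45.7 (9.22 and 13.2). HDAC3 was lost at 100.0 in both, at 1 of 1 member in each (86.8 and 79.0 of all genes). For siME2 that share again equalled the main one. Members away from other genes gave AcH3 lost at 0.0 in siME1 (14.1 of all genes). They gave HDAC3 gained at 0.0 in both (2.2 and 1.27 of all genes) and listed at 0.0 in siME2 (1.91). Start sites gave AcH3 lost at 0.0 in siME1 (13.3 of all genes). A summit within the window gave AcH3 gained at 14.3 in siME1, at 1 of 7 members (2.55 of all genes). The whole gene gave AcH3 lost at 0.0 in siME1 (11.8 of all genes). It gave HDAC3 listed at 3.57 and gained at 3.8 in siME2 (3.8 and 2.11 of all genes). The cause of these moves was not tested, beyond the fewer or more regions that each rule admits. Under no alternative did members listed for AcH2B in siME1 or siME2 fall below siControl. HDAC3 summits of 5 to 9 fragments limit what can be said of it.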
